A study of Mus musculus with 6 samples.

Results

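The genes of the major milk proteins were followed in cultured mouse mammary stem cells: the 5 casein genes Csn1s1, Csn2, Csn1s2a, Csn1s2b and Csn3, the whey protein genes Lalba and Wap, Glycam1, and the genes Btn1a1 and Xdh of the milk fat globule. These 10 genes were chosen by name from 22180 named genes, with earlier results of these data known, and each was read by 1 probe set. Expression was measured on 6 single-channel Affymetrix arrays, 3 of Mll3-null cells and 3 of wild-type (WT) cells. MLL3 is an enhancer-associated enzyme that methylates histone H3, and its gene is Kmt2c. The lines were engineered by CRISPR, and cells of both genotypes were grown as organoids, 3-dimensional epithelial cultures. The labels name no hormone treatment, and the composition of the medium, the mouse strain, the age of the donor animals and the number of clones behind each genotype are not stated in the labels. Each array is labelled a biological replicate without saying what was separate, and p-values therefore reflect only how these arrays scatter, which may be technical.

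Milk protein genes are the end products of alveolar differentiation. In the gland, prolactin binds its receptor and activates the kinase JAK2, which phosphorylates STAT5A and STAT5B. These factors bind palindromic sites in milk gene promoters together with the glucocorticoid receptor, and the transcription factor ELF5 drives luminal progenitors towards the alveolar fate. Caseins assemble into micelles that carry calcium and phosphate, alpha-lactalbumin switches a galactosyltransferase to lactose synthesis, and butyrophilin and xanthine oxidoreductase coat the fat droplet as it leaves the cell. Caseins can be found at low levels before pregnancy, while Wap is known as a late marker of lactation.

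Without any labelled lactogenic stimulus, Csn1s1, Csn3, Lalba, Xdh and Btn1a1 were above background on all 6 arrays, Csn2 on 5 and Wap on 1, while Csn1s2a, Csn1s2b and Glycam1 were above it on none. Background was set from 1428 olfactory, vomeronasal and taste receptor genes, taken here as not expressed by mammary cells, because no detection values were used. The limit was the 95th percentile of these genes on each array and lay between 4.29 and 4.37 on the log2 scale. Probe sets differ in brightness for the same amount of RNA, so the limit separates bright from dim probe sets and does not rank genes by mRNA amount. Over all genes other than these receptors, 59.3% were above the limit on all 6 arrays and 31.1% on none. At the stricter 99th percentile (5.55 to 5.74), Csn1s1, Csn3 and Xdh stayed above on all arrays, Lalba was above on 4, Csn2 on 1 and Btn1a1 on none.

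No milk protein gene differed between the genotypes once all genes were corrected for. None of the 10 passed limma's moderated test at an adjusted p (Benjamini-Hochberg) of 0.05, where 0% of all 22180 genes did. None had an unadjusted p under 0.05, against 4.93% of all genes, and for none were the 2 groups free of overlap, against 10.7% of all genes (5.44% with every Mll3-null array higher and 5.31% with every one lower). The mean was higher in Mll3-null cells for 9 of the 10, against 51.5% of all genes, with a median log2 difference of 0.32 beside 0.01 over all genes. Csn1s2a, Csn1s2b and Glycam1 count among the 9 though they were at background on all arrays. Csn3 and Lalba were both lowest in WT replicate 2, second lowest in Mll3-null replicate 1 and highest in Mll3-null replicates 2 and 3. The 9 are therefore not all separate instances. Csn1s1 and Lalba had means at least 2-fold higher, against 0.532% of all genes, and none was 2-fold lower, against 0.622%. These 2 genes and the other bright caseins also had very wide replicate spread, described further on.

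**Figure D1:**
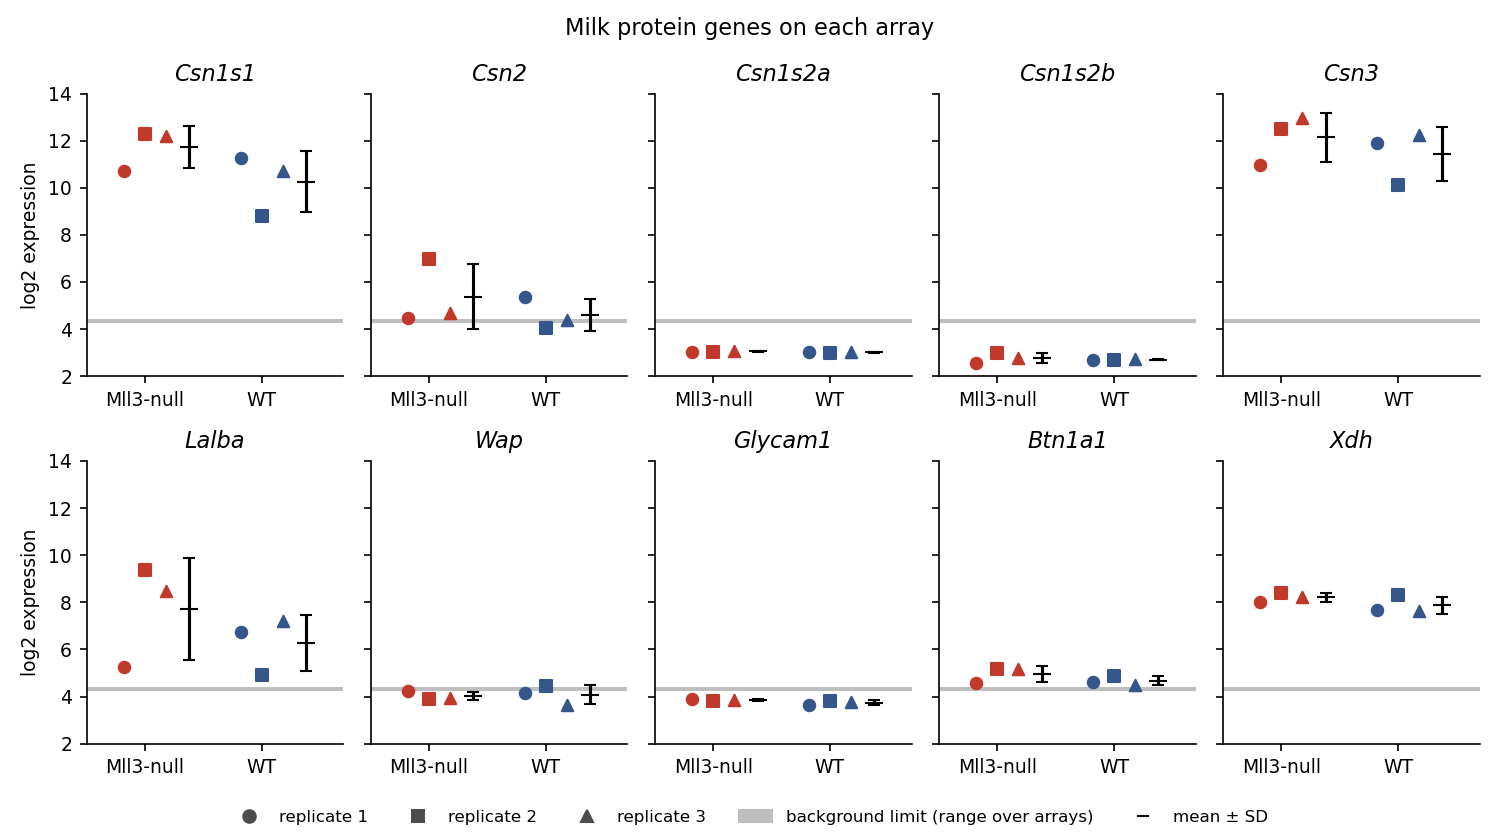
Log2 expression of the 10 milk protein genes on each array, Mll3-null left and WT right, with mean ± SD (n = 3 each) and the range of the background limit in grey. Csn1s1, Csn3 and Xdh lie far above the limit on all arrays, Csn1s2a and Csn1s2b lie below it, and the groups overlap for all 10 genes.

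The sources used here held upstream sequence for 6 of the genes, and the 250 bases before the annotated start are printed for 4 of them: 3 neighbouring casein genes that were bright, intermediate and at background on these arrays, and Lalba, which lies on another chromosome. Sequences are from RefSeq (build GRCm38.p6), 5′ to 3′ on the gene's own strand. Capitals mark matches to TTCNNNGAA, the palindrome bound by STAT factors, which reads the same on both strands.
Csn1s1, chr5:87665958-87666207, plus strand: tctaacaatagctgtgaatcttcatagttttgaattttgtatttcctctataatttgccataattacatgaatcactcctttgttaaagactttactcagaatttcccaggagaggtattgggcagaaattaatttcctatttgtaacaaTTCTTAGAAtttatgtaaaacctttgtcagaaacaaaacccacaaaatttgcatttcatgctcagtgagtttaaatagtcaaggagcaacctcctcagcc
Csn2, chr5:87699426-87699675, minus strand: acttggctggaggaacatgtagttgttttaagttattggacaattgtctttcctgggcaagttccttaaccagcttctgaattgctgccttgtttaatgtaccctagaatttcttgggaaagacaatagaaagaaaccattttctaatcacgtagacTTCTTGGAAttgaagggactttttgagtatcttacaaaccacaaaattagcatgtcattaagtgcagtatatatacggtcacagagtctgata
Csn1s2a, chr5:87774200-87774449, plus strand: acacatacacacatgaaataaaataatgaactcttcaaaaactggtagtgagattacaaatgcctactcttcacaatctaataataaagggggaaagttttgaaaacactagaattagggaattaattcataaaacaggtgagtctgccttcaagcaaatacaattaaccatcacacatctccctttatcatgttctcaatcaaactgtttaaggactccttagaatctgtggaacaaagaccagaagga
Lalba, chr15:98482684-98482933, minus strand: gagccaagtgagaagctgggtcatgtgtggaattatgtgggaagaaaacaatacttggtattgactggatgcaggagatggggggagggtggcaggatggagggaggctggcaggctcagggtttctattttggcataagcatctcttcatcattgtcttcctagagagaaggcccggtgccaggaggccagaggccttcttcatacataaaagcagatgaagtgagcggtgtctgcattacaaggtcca

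Csn1s1 and Csn2 each held 1 match, TTCTTAGAA at -100 to -92 and TTCTTGGAA at -93 to -85 from the start. Glycam1, which was at background on these arrays, also held 1 match, TTCCCAGAA at -145 to -137. The windows of Csn1s2a, Lalba and Wap held none of these letters, and Csn1s2b, Csn3, Btn1a1 and Xdh were not examined. Among 32851 upstream windows of the same length, 7.02% held at least 1 match. A match describes the letters only. Csn1s1, bright on all arrays, held a match, and Lalba, which ran from 4.91 to 9.38 over the arrays, held none. The relation of matches to expression was not tested.

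The caseins are the calcium-carrying proteins of the milk micelle, and 2 of the 5 were bright on every array. Csn1s1, alpha-S1-casein, stood at 10.71, 12.30 and 12.21 in Mll3-null replicates 1 to 3, compared with 11.26, 8.80 and 10.69 in WT replicates 1 to 3 (log2 level). Mll3-null replicates 2 and 3 were higher than all WT arrays, Mll3-null replicate 1 lay within the WT range, and WT replicate 2 was by far the lowest. The means were 11.74 ± 0.89 in Mll3-null and 10.25 ± 1.29 in WT cells (SD, n = 3 each). The difference of 1.49 ± 0.71 (log2, SE), or 2.81-fold, had a 95% interval from -0.22 to 3.20 and a limma adjusted p of 0.84. Without WT replicate 2 the difference was 0.76.

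Csn3, kappa-casein, which caps and stabilises the micelle, showed much the same array order. Its levels were 10.97, 12.47 and 12.96 in Mll3-null replicates 1 to 3, compared with 11.91, 10.11 and 12.25 in WT replicates 1 to 3. WT replicate 2 was again lowest and Mll3-null replicate 1 second lowest, so the groups overlapped broadly. The difference was 0.71 ± 0.70 (log2, SE; 95% interval -0.97 to 2.40; limma adjusted p = 0.86). It was 0.06 without WT replicate 2 and 1.29 without Mll3-null replicate 1.

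Csn2, beta-casein, is the casein gene most often used to report a lactogenic response, and it was close to the background limit on most arrays. Mll3-null replicates 1 to 3 had 4.45, 6.97 and 4.70, and WT replicates 1 to 3 had 5.35, 4.06 and 4.38. Replicate 2 of the Mll3-null cells stood 2.63 log2 units above its array's limit, WT replicate 1 stood 1.04 above, WT replicate 2 was 0.24 below, and the other 3 arrays were 0.09 to 0.36 above. The difference of 0.77 ± 0.70 (log2, SE; 95% interval -0.91 to 2.46; limma adjusted p = 0.85) rested on 1 array, since it was -0.03 without Mll3-null replicate 2. With array weights it was 1.58, also short of the correction (limma adjusted p = 0.45).

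The alpha-S2-casein genes were at background throughout. Csn1s2a ran from 3.02 to 3.09 in Mll3-null and from 2.99 to 3.05 in WT cells, and Csn1s2b from 2.58 to 2.97 in Mll3-null and from 2.69 to 2.72 in WT cells. Their limma differences of 0.03 ± 0.08 and 0.06 ± 0.12 (log2, SE) are therefore differences between background readings and hold no fold change.

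Bright and background-level genes lay side by side in the casein cluster. On mouse chromosome 5 the RefSeq annotation orders the cluster as Csn1s1, Csn2, Csn1s2a, Csn1s2b, Prr27, Odam, BC037156 and Csn3, with Sult1e1 and Cabs1 as the flanking protein-coding genes. The bright Csn1s1 and Csn3 thus stand near the 2 ends of the cluster. Between them lie Csn2, above the limit on 5 arrays, several background-level genes, and BC037156, which had no value here. A list of 10 measured genes of the wider region, including the sulfotransferase Sult1e1 and the enamel gene Ambn, had no member above the background limit on any array. Of these, Odam, which encodes an odontogenic ameloblast-associated protein, was at 3.39, 3.70 and 4.06 in Mll3-null replicates 1 to 3, compared with 3.32, 3.29 and 3.31 in WT replicates 1 to 3. All Mll3-null values were higher, but all lay below the limit, and the difference of 0.41 ± 0.17 did not pass the correction (limma adjusted p = 0.84). Smr3a differed by 0.16 ± 0.11, also below the limit on all arrays.

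**Figure D2:**
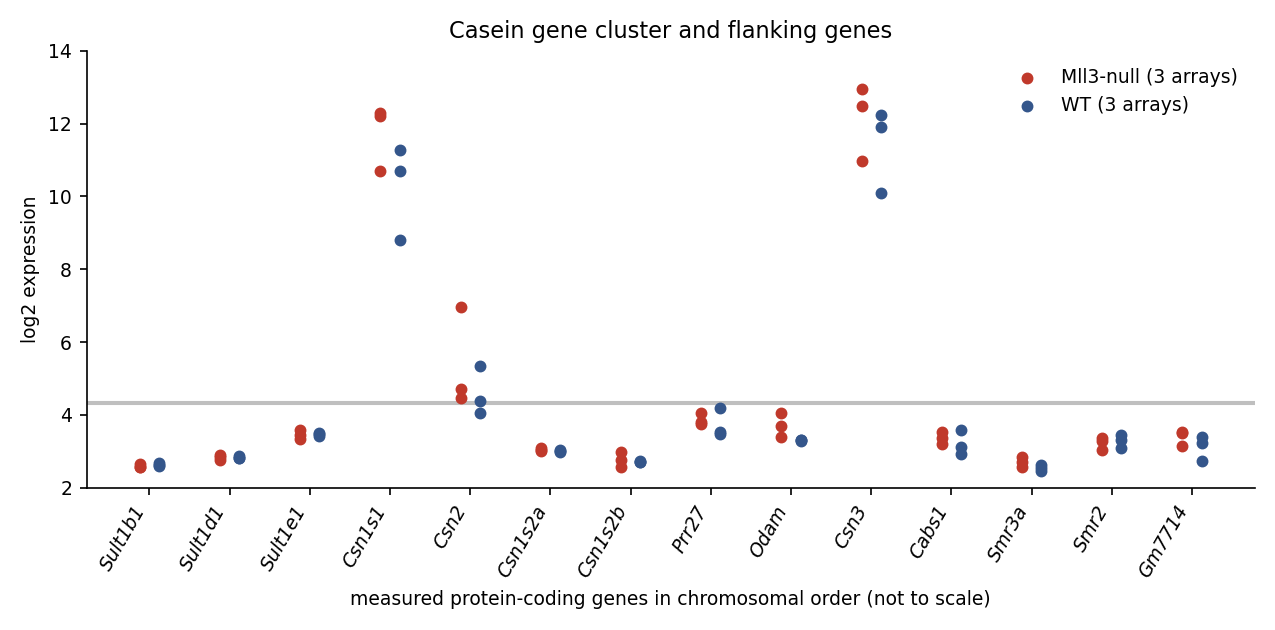
Log2 expression of the measured protein-coding genes of the casein cluster and its flanks, in chromosomal order and not to scale, with 1 point per array (Mll3-null left in red, WT right in blue) and the background limit in grey. Csn1s1 and Csn3 lie between 8.80 and 12.96, Csn2 between 4.06 and 6.97, and the other genes below the limit.

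Lalba encodes alpha-lactalbumin, the whey protein that forms lactose synthase with the enzyme B4GALT1, and it had the widest spread of the 10 genes. Its levels were 5.27, 9.38 and 8.48 in Mll3-null replicates 1 to 3, compared with 6.73, 4.91 and 7.19 in WT replicates 1 to 3. The 2 highest and the second lowest of the 6 values were thus all from Mll3-null cells, a range of 4.46 log2 units over the arrays. The difference of 1.43 ± 1.12 (log2, SE), or 2.70-fold, had a 95% interval from -1.26 to 4.12 and a limma adjusted p of 0.84. It was 2.65 without Mll3-null replicate 1, 0.60 without Mll3-null replicate 2 and 0.75 without WT replicate 2, and 2.18 with array weights (limma adjusted p = 0.46).

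Wap, whey acidic protein, lay near the background limit, so its order over the arrays cannot be set against that of Lalba or the bright caseins. It stood at 4.22, 3.91 and 3.93 in Mll3-null replicates 1 to 3, compared with 4.14, 4.45 and 3.66 in WT replicates 1 to 3. Only WT replicate 2, the array with the lowest Csn1s1, Csn3 and Lalba, exceeded its array's limit, by 0.15 log2 units. The difference was -0.06 ± 0.21 (log2, SE; 95% interval -0.57 to 0.44; limma adjusted p = 0.96). Glycam1, a mucin-like protein of milk and of lymph node vessels, lay between 3.82 and 3.92 in Mll3-null and between 3.63 and 3.82 in WT cells, below the limit on all arrays.

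The fat globule genes had a smaller replicate spread than Csn1s1, Csn3, Csn2 and Lalba. Xdh encodes xanthine oxidoreductase, a purine-degrading enzyme that many tissues express and that is also a structural partner of butyrophilin in milk fat secretion. It was at 8.01, 8.39 and 8.23 in Mll3-null replicates 1 to 3, compared with 7.65, 8.30 and 7.65 in WT replicates 1 to 3. WT replicate 2, low for the caseins, was the highest WT array here. The difference was 0.34 ± 0.20 (log2, SE; 95% interval -0.15 to 0.83; limma adjusted p = 0.84), and it was 0.56 without WT replicate 2. Btn1a1, butyrophilin, was just above the limit, at 4.58, 5.16 and 5.18 in Mll3-null and 4.62, 4.88 and 4.50 in WT replicates 1 to 3. It differed by 0.31 ± 0.19 (log2, SE; 95% interval -0.16 to 0.77; limma adjusted p = 0.84), with WT replicate 2 again the highest WT array. Leaving out Mll3-null replicate 1 gave 0.50, and leaving out Mll3-null replicate 3 gave 0.20.

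**Figure D3:**
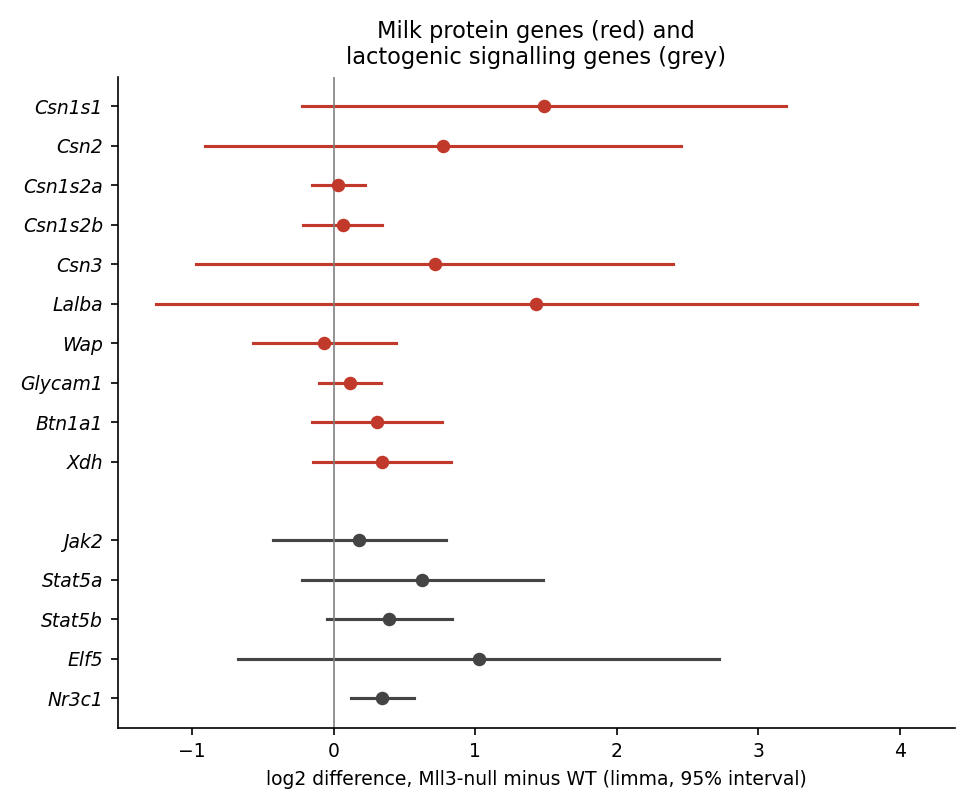
Log2 difference, Mll3-null minus WT, with limma's 95% interval for the 10 milk protein genes (red) and 5 genes of lactogenic signalling (grey). The intervals of all 10 milk protein genes include 0, and those of Lalba, Csn3, Csn2 and Csn1s1 are the widest among them, while the unadjusted interval of Nr3c1 excludes 0.

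Spread between replicates set what could be seen. The residual SD within groups was 1.11 log2 units for Csn1s1, 1.09 for Csn2, 1.09 for Csn3 and 1.75 for Lalba, beside a median of 0.16 over all genes. Each of these 4 genes had a larger spread than 99% of all genes, dim genes included. So did Elf5, Kit and Krt14, described further on, so such a spread was not particular to milk protein genes. Xdh, Btn1a1 and Wap, at 0.28 to 0.31, lay between the 82.5th and the 85.7th percentile, and Csn1s2a, at 0.03, lay below the 1st. Csn1s2b, at 0.14, and Glycam1, at 0.08, lay at percentiles 42.7 and 14.3. Csn1s2a, Csn1s2b and Glycam1 were at background on all arrays, so their spread says nothing about their regulation.

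**Figure D4:**
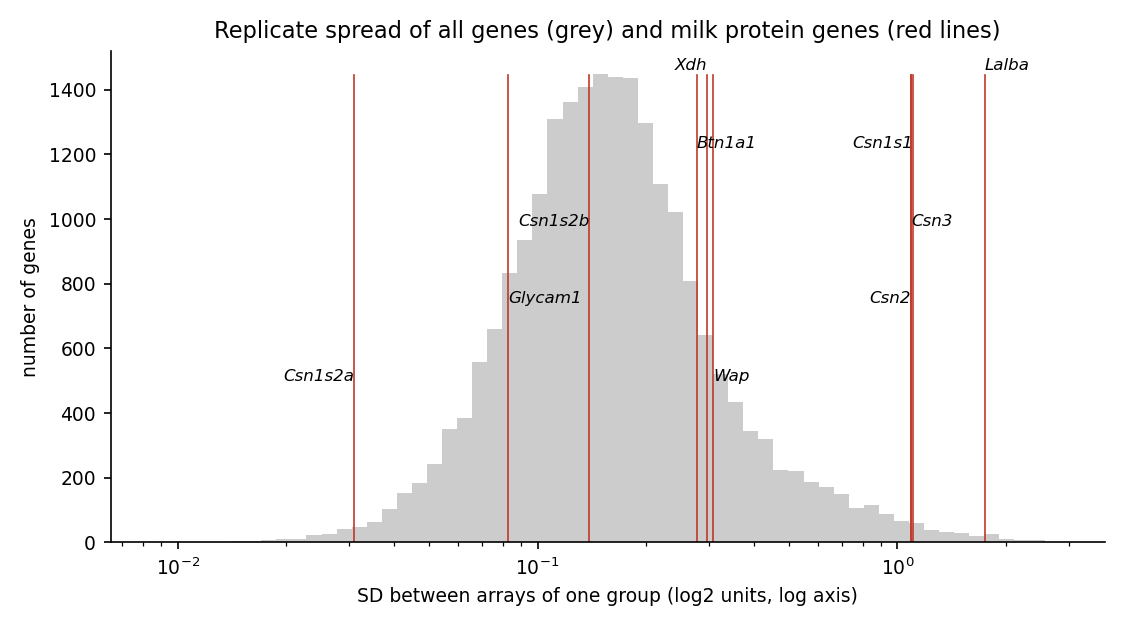
Number of genes by residual SD within groups (log2 units on a log axis) for all 22180 genes, with red lines at the milk protein genes. Csn1s1, Csn2, Csn3 and Lalba lie in the far right tail, between 1.09 and 1.75.

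Genes of lactogenic signalling were examined beside the milk genes, since they stand between hormone and promoter. Of 27 measured genes 21 had a higher mean in Mll3-null cells, against 51.5% of all genes (median log2 difference 0.25). On all arrays 24 were above background, against 59.3% of genes other than the receptors. None passed the correction over all genes. At an unadjusted p under 0.05, 2 were higher, against 2.51% of all genes, and none lower, against 2.42%. Nr3c1, the glucocorticoid receptor, was at 7.65, 7.80 and 7.87 in Mll3-null replicates 1 to 3, compared with 7.42, 7.39 and 7.48 in WT replicates 1 to 3. The lowest Mll3-null value was above the highest WT value, as for 5.44% of all genes, and the difference was 0.34 ± 0.09 (log2, SE; limma adjusted p = 0.84). Cebpb, a transcription factor of alveolar development, differed by 0.34 ± 0.13, also with no overlap and with the same adjusted p. The prolactin receptor gene Prlr was not analysed here.

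Elf5, Stat5a and Stat5b overlapped between the groups, and all 3 were lowest in WT replicate 2 and second lowest in Mll3-null replicate 1, as were Csn3 and Lalba. Elf5 had 6.59, 8.51 and 9.02 in Mll3-null replicates 1 to 3, compared with 7.64, 6.002 and 7.39 in WT replicates 1 to 3, a difference of 1.02 ± 0.71 (log2, SE; limma adjusted p = 0.84). Stat5a had 7.20, 7.78 and 8.42 in Mll3-null and 7.52, 6.64 and 7.35 in WT replicates 1 to 3, and differed by 0.63 ± 0.36. Both genes were highest in Mll3-null replicate 3. Stat5b differed by 0.39 ± 0.18 and Jak2 by 0.18 ± 0.26, neither past the correction. The STAT5 target genes Cish and Socs2, which encode feedback inhibitors of cytokine receptors, differed by 0.22 ± 0.13 and 0.46 ± 0.62 (named after their values were seen). Jak2, Cish and Socs2 did not share the array order of Elf5: Jak2 was lowest in Mll3-null replicate 2, Cish in WT replicate 3 and Socs2 in Mll3-null replicate 1.

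**Figure D5:**
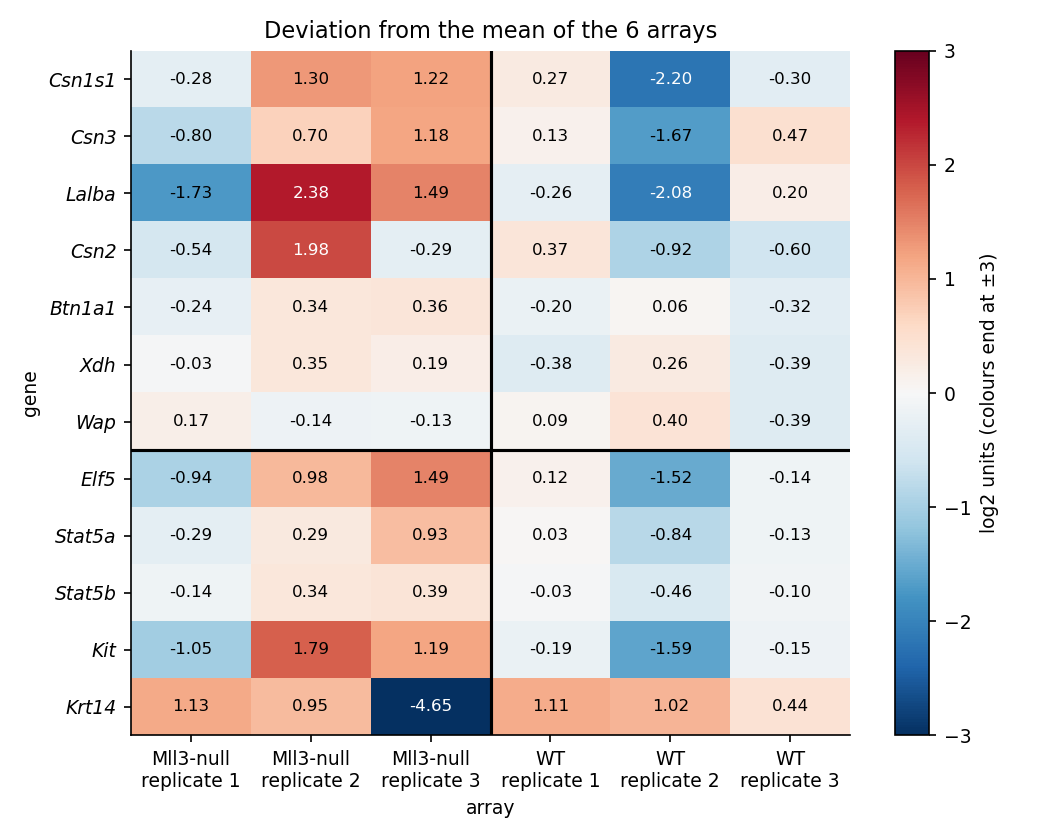
Deviation of each gene from its mean over the 6 arrays (log2 units), Mll3-null arrays left and WT arrays right, for the milk protein genes other than those at background on all arrays (above the line) and for Elf5, Stat5a, Stat5b, Kit and Krt14 (below it). Csn1s1, Csn3, Lalba, Elf5, Stat5a, Stat5b and Kit are below their mean in Mll3-null replicate 1 and WT replicate 2 and above it in Mll3-null replicates 2 and 3, while Krt14 is below its mean in Mll3-null replicate 3 alone.

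Levels in bulk RNA cannot tell fewer cells of a type from less RNA per cell, which touches every milk gene here. Averaged over the 12 alveolar luminal markers, Mll3-null replicates 1 to 3 lay at -0.53, 0.46 and 0.48 and WT replicates 1 to 3 at 0.03, -0.59 and 0.16 (log2 deviation from the 6-array mean). The 10 milk protein genes lay at -0.35, 0.72 and 0.41 in Mll3-null and at -0.02, -0.62 and -0.14 in WT replicates 1 to 3. In both lists WT replicate 2 and Mll3-null replicate 1 were the 2 lowest arrays. Kit, a receptor of luminal progenitors, was at 5.92, 8.76 and 8.16 in Mll3-null and 6.78, 5.38 and 6.83 in WT replicates 1 to 3 (named after its values were seen). No alveolar marker passed the correction, and 8 of 12 had a higher mean in Mll3-null cells, against 51.5% of all genes. Plet1 differed by 0.90 ± 0.40 and Ltf, the lactoferrin gene, by -1.64 ± 0.61. Not every alveolar marker followed the array order of Kit. Ltf was highest in WT replicate 2 and lowest in Mll3-null replicate 3, at 1.69 and -1.96 from its mean. Cd14 was below its mean in Mll3-null replicate 2 (-0.28) and Rspo1 above its mean in WT replicate 2 (0.10), both named after their values were seen. The median difference of 0.08 turned on single arrays: it was 0.35 without Mll3-null replicate 1, -0.015 without Mll3-null replicate 3 and -0.020 without WT replicate 2. The part of luminal cell content in the casein levels was not tested.

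Basal markers moved differently. Mll3-null replicate 3 stood apart from the other arrays, with 123 genes over 1 log2 unit above and 294 over 1 unit below all others, and its Krt14, a basal keratin, was at 6.65 against 11.74 to 12.43 on the other 5 arrays. The 14 basal and myoepithelial markers averaged 0.33, 0.58 and -1.31 in Mll3-null replicates 1 to 3 and 0.18, -0.08 and 0.30 in WT replicates 1 to 3. Csn1s1 and Csn3 were highest in Mll3-null replicates 2 and 3, where this basal average was high and low in turn. Not every basal marker was low in Mll3-null replicate 3, since Igfbp5 and Oxtr were highest there (Oxtr named after its values were seen). The part of basal cell content in the casein levels was not tested. Without Mll3-null replicate 3 the differences were 1.25 for Csn1s1, 0.30 for Csn3 and 1.04 for Lalba. Among the basal markers, 9 of 14 had a lower mean in Mll3-null cells (median -0.48), with Igfbp5, an IGF-binding protein, at 2.81 ± 1.03 and Tagln, a smooth muscle protein, at 0.19 ± 0.12, neither past the correction. The direction of that median rested on 1 array, since it was 0.12 without Mll3-null replicate 3. Hormone-sensing luminal markers had a lower mean in 6 of 9 (median -0.42), with Wnt4 at -0.65 ± 0.21 and S100a6 at -0.70 ± 0.35, neither past the correction. This median was -0.14 without Mll3-null replicate 2 and -0.20 without WT replicate 1. Over all genes, 51.5% had a higher mean in Mll3-null cells.

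Markers of other gland cells were mostly dim. Above the background limit on all arrays were 0 of 7 adipocyte, 2 of 8 fibroblast, 1 of 6 immune and 1 of 8 endothelial markers. Over genes other than the receptors, this share was 59.3%. The median differences of these marker lists lay between -0.05 and 0.06. None of these 29 markers passed the correction. Adipoq, Ptprc and Cdh5, for example, were below the limit on every array, while Col1a1, Pdgfra, Cd68 and Pecam1 were above it on every array. Kmt2c itself was at 5.84, 6.42 and 6.07 in Mll3-null replicates 1 to 3, compared with 6.63, 5.58 and 5.82 in WT replicates 1 to 3, and overlapped between the groups. The labels do not say which bases were edited or whether the probe set covers them, so the genotype is not checked by this reading.

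Milk contains other secreted products, and their genes were more varied in direction. Of 17 further milk protein genes 13 had a higher mean in Mll3-null cells, against 51.5% of all genes (median 0.10), and none passed the correction. Muc1, a mucin of the fat globule membrane, was at 5.61, 7.18 and 8.42 in Mll3-null replicates 1 to 3, compared with 4.84, 5.10 and 4.94 in WT replicates 1 to 3. The groups did not overlap, with every Mll3-null array higher, as for 5.44% of all genes. The difference was 2.11 ± 0.64 (log2, SE; limma adjusted p = 0.84). The WT values lay only 0.52 to 0.79 log2 units above the background limit, so the size of this difference is uncertain. Ltf, whose product is an antimicrobial protein of milk, was at 10.10, 9.61 and 8.14 in Mll3-null replicates 1 to 3, compared with 10.08, 11.79 and 10.89 in WT replicates 1 to 3. It was thus lowest in Mll3-null replicate 3 and highest in WT replicate 2, the reverse of Csn3.

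Genes of milk fat and lactose were mostly bright. Of 24 lipid genes 18 were above background on all arrays, against 59.3% of genes other than the receptors. Of the 24, 16 had a higher mean in Mll3-null cells, against 51.5% of all genes. Their median was 0.16, and 0.085 without Mll3-null replicate 3, and none passed the correction. Lpin1, a phosphatidate phosphatase of triglyceride synthesis, was at 7.61, 7.64 and 7.97 in Mll3-null replicates 1 to 3, compared with 7.31, 7.17 and 7.37 in WT replicates 1 to 3. All its Mll3-null values were above the WT values (0.46 ± 0.13, log2, SE; limma adjusted p = 0.84). For Dgat1, which makes triglyceride, all Mll3-null arrays lay below the WT arrays, with a difference of -0.23 ± 0.10. Of 16 genes of lactose synthesis and mineral transport 9 had a higher mean, against the same 51.5% (median 0.08), and none passed. Among them the water channel Aqp5 differed by 0.95 ± 0.47 and the glucose transporter Slc2a1 by 0.34 ± 0.18. B4galt1, the partner of alpha-lactalbumin, differed by 0.44 ± 0.28 (named after its values were seen).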

How the data were processed

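The authors deposited 1 log2 expression value for each of 41345 probe sets on 6 arrays. The log2 scale was inferred from the values (1.72 to 13.56, array medians 4.35 to 4.40). Per the submitters' processing notes the authors used Affymetrix Expression Console; its version and normalization and the genome build were not stated there. Near-equal quartiles mean that total RNA changes per cell cannot be seen.

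Probe sets with exactly 1 symbol in the platform annotation (23521) were kept, and the brightest of a gene's probe sets by 6-array mean represented it, which left 22180 genes. The genotypes were tested against each other in limma 3.58.1 under R 4.3.3 (lmFit, eBayes, genotype only, two-sided), adjusted over all genes by Benjamini-Hochberg at 0.05, without a filter on dim genes. The fit was tested on simulated data. Members and the 13 lists were chosen with earlier results of these data known, so list counts and medians are descriptions. Named genes are all members, 2 genes of smallest p per other list (5 signalling genes regardless of p), Kmt2c and Krt14. Marker genes of dim cell types are named only as examples. Alternatives covered the variance model, array weights, filters, normalization, probe sets, a replicate block and leaving out each array. The number of arrays limits the precision.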

Additional observations from a re-analysis of the deposited data

How the results depend on the processing

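Across 14 alternative settings no gene passed the adjusted threshold, and no milk protein gene did (smallest adjusted p 0.26, for Lalba). The number of genes with an unadjusted p under 0.05 was 1093, and it was 2504 with array weights, 551 after a filter at 5 and 716 to 2742 when leaving out 1 array. Alpha-S2-casein genes and Glycam1 had no value under either filter, and Wap, Csn2 and Btn1a1 none under the stricter one. Directions reversed for Csn2 (-0.025) and Csn1s2b (-0.038) without Mll3-null replicate 2 and for Wap (0.12) without WT replicate 2. When leaving out 1 array the differences ran from 0.76 to 2.00 for Csn1s1, 0.06 to 1.29 for Csn3, -0.03 to 1.23 for Csn2, 0.60 to 2.65 for Lalba, 0.20 to 0.50 for Btn1a1, 0.23 to 0.56 for Xdh, -0.28 to 0.12 for Wap and -0.04 to 0.16 for Csn1s2b, and 7 to 10 genes of the 10 had a higher mean. The list medians ran from 0.17 to 0.47 for the milk protein genes, 0.18 to 0.40 for lactogenic signalling, 0.085 to 0.22 for lipid genes, 0.058 to 0.15 for lactose and mineral transport, -0.020 to 0.35 for alveolar, -0.58 to -0.14 for hormone-sensing and -0.85 to 0.12 for basal markers, 0.020 to 0.36 for the other secreted milk proteins and -0.12 to 0.049 for adipocyte markers. With array weights the differences of Csn2, Lalba and Csn1s2b were 1.58, 2.18 and 0.17. The count above background on all arrays was 3 at the 99th percentile instead of 5. Whether replicate numbers pair the arrays cannot be settled with 3 arrays per group. Correlations of same-numbered deviations were 0.03, 0.08 and 0.31, and those of differently numbered ones ran from -0.29 to 0.22. With the replicate block the difference of Csn1s1 was 1.49 and no gene was called. The causes were not tested.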

Other observations

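The array order of Csn3 and Lalba was not theirs alone. Mll3-null replicates 2 and 3 above WT replicates 1 and 3, these above Mll3-null replicate 1, and WT replicate 2 lowest was the order of 92 of the 621 genes whose values ranged over at least 2 log2 units, or 14.8%. This order was described after the values were seen, and no test was made of it. Among the 92 genes were Elf5, Kit, the chemokine receptor gene Cxcr4 (6.71, 9.90 and 10.23 in Mll3-null replicates 1 to 3 against 7.66, 6.25 and 7.66 in WT replicates 1 to 3) and the transcription factor gene Sox10 (6.73, 8.85 and 9.45 in Mll3-null replicates 1 to 3 against 7.91, 6.12 and 8.66 in WT replicates 1 to 3). Foxi1, a forkhead factor gene, had 7.64, 10.06 and 10.63 in Mll3-null and 8.42, 6.05 and 8.66 in WT replicates 1 to 3. Csn1s1 missed this order only because Mll3-null replicate 1, at 10.71, was level with WT replicate 3, at 10.69.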
